A study of Mus musculus with 12 samples.

Results

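The genes described here build the MHC class II route of antigen presentation. They were found by gene symbol in the expression tables of every library, and all 10 were listed in both tissues, out of 22924 gene IDs in all. They are the genes of the class II heterodimers on the cell surface (H2-Aa, H2-Ab1 and H2-Eb1), of the invariant chain (Cd74), of the peptide exchange factor H2-M (H2-DMa, H2-DMb1 and H2-DMb2), of its inhibitor H2-O (H2-Oa and H2-Ob), and of the class II transactivator (Ciita). The study sequenced RNA from the lung and the spleen of mice that lack integrin β3 (β3-/-) and of wild-type (WT) mice. There were 3 mice per genotype and 12 libraries, and the mice were 8 to 10 weeks old. Per the methods, the β3-/- mice were on a C57BL/6 background and the WT mice were C57BL/6. The β3-/- mice carried the Itgb3 deletion in every cell and came as a gift, whereas the WT mice were purchased. No group received a treatment. Expression was deposited as FPKM, a level per length of transcript and per size of library, so levels can be set side by side between genes.

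Class II molecules are heterodimers of an α and a β chain that carry peptides from endocytosed proteins to the surface, where CD4+ T cells read them. The invariant chain holds new heterodimers stable and blocks their groove on the way to the endosome. There H2-M removes the last fragment of the invariant chain and lets better-fitting peptides in, and H2-O, which is made mainly by B cells, restrains H2-M. Ciita is the coactivator that most of these genes need, and it is brought to their promoters by factors bound to the X and Y boxes. Steady class II expression belongs to B cells, dendritic cells and some macrophages, and in the lung also to alveolar type 2 cells.

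Genotype was not the only difference between the groups. Itgb3, the targeted gene, had 3.57, 4.02 and 3.52 FPKM in β3-/- spleens against 10.6, 8.95 and 8.50 FPKM in WT spleens, and 1.94, 1.34 and 1.29 FPKM in β3-/- lungs against 3.68, 4.39 and 4.14 FPKM in WT lungs. It was thus lower, but not absent, in every β3-/- library. The 4 Y-linked genes examined were at 0 in every β3-/- library and above 0 in every WT library, so genotype, sex and the source of the mice cannot be told apart. The spleen libraries held 246 to 364 FPKM of 7 spleen genes against 22.7 to 35.2 FPKM in the lung libraries, and the lung libraries held over 41442 FPKM of 7 lung genes against at most 24.3 FPKM in the spleen libraries. In β3-/- spleens immunoglobulin genes took up 11.9% ± 0.521 of all FPKM and globin genes 16.1% ± 4.67, against 5.79% ± 0.328 and 3.87% ± 2.20 in WT spleens (SD, n = 3 each). In β3-/- lungs they took up 1.27% ± 0.255 and 2.67% ± 0.589, against 0.283% ± 0.0424 and 1.28% ± 0.285 in WT lungs (SD, n = 3 each). Spleen replicate 2 of each genotype also held pancreas transcripts, summing to 195 FPKM in the β3-/- library and 1948 FPKM in the WT library. Among lung libraries the ubiquitin gene Ubb was at 570 to 688 FPKM in 1 β3-/- and 2 WT libraries and at 4.52 to 4.97 FPKM in the other three.

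The class II genes sit close together. In the GRCm39 annotation 8 of them lie within 224 kb of mouse chromosome 17, in the order H2-Oa (chr17:34311314-34314328), H2-DMa (chr17:34338515-34358958), H2-DMb2 (chr17:34362197-34370529), H2-DMb1 (chr17:34372046-34379204), H2-Ob (chr17:34457836-34473388), H2-Ab1 (chr17:34476663-34488393), H2-Aa (chr17:34493404-34506798) and H2-Eb1 (chr17:34504236-34535648). H2-Aa is on the minus strand and the other 7 on the plus strand. Cd74 and Ciita lie on other chromosomes. The annotated ends of H2-Aa and H2-Eb1 overlap on opposite strands, and whether the counting used strand is not given in the sources used here. H2-DMb1 and H2-DMb2 are neighbouring copies of very similar sequence, so reads may have been split between them and their separate values are less certain than their sum.

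Ciita acts through boxes that these genes share, and the promoter stretches that carry them are shown for that reason. RefSeq promoter windows (build GRCm38.p6, 250 bases before to 50 bases after the annotated start) were at hand for 7 of the 10 genes. H2-Ab1, Cd74 and Ciita had no window. In each stretch below the capitals mark the letters searched for. These are ATGATG, a part of the X box, first, and TGATTGG of the Y box, second, or TGATTGG alone.
H2-Eb1: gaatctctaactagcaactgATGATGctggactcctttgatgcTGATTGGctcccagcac
H2-DMb1: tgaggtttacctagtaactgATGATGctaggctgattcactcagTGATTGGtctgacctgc
H2-DMb2: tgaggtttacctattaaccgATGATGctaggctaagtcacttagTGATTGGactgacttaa
H2-Ob: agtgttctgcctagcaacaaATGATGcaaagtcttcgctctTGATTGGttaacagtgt
H2-Aa: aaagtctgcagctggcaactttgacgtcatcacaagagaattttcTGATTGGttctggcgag
H2-Oa: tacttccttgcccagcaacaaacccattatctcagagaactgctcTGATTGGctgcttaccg
All stretches are on chromosome 17 of GRCm38.p6 and are read on the strand of the gene: chr17:34305763-34305822 for H2-Eb1, chr17:34153084-34153144 for H2-DMb1, chr17:34145113-34145173 for H2-DMb2, chr17:34238805-34238862 for H2-Ob, chr17:34287857-34287918 for H2-Aa on the minus strand and chr17:34092289-34092350 for H2-Oa.

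The Y box letters stood 45 to 92 bases before the start in 6 of the 7 genes with a window. Over all 32851 RefSeq windows of 300 bases, 7.82% held them, on either strand. The letters searched for as part of the X box were in 4 of the 7 genes and in 11.2% of all windows. Both in order without overlap, with at most 40 bases between them, were in the same 4 genes, 15 to 18 bases apart, and in 0.0639% of all windows, or 21 of them. Neither of the 2 windows of H2-DMa held a match. The letters were chosen after looking at these promoters, and a match describes the sequence and is not a measured binding site. A window without ATGATG was not shown to lack an X box, since no other letters of that box were searched.

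The levels of the class II genes kept the same broad order in all 4 groups (plot of FPKM per library). Cd74 was highest, H2-Aa came next, then H2-Ab1 and H2-Eb1, and Ciita was lowest. In WT spleens Cd74 ranked 6 and H2-Aa 12 among 22562 genes by mean FPKM, and in β3-/- spleens they ranked 10 and 25. In WT lungs they ranked 27 and 70 of 22479 genes, and in β3-/- lungs 26 and 57. H2-Ab1 and H2-Eb1 overlapped in range in β3-/- spleens and in WT lungs. In the middle of the order the tissues differed: H2-DMb2 ranked above H2-DMa and H2-DMb1 in spleen and below both in lung, in both genotypes. In WT lungs H2-DMb2 could not be placed apart from H2-DMb1 or H2-Ob, since the ranges overlapped.

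**Figure D1:**
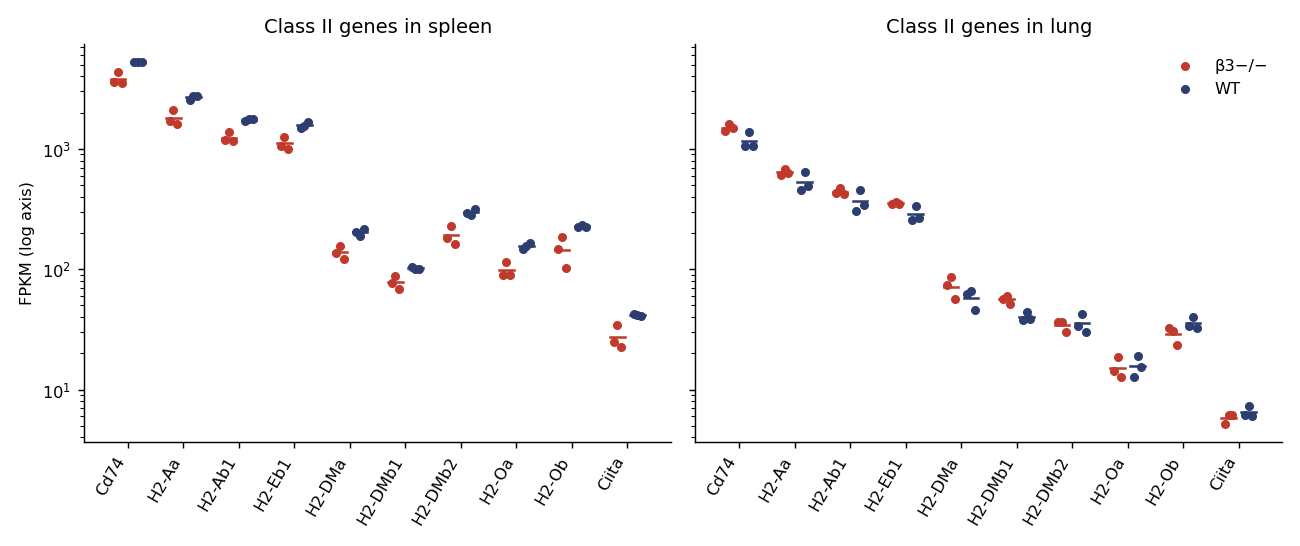
FPKM of the class II genes (log axis) in spleen on the left and lung on the right, with each point 1 library, β3-/- left of WT, and the line at the mean of 3 libraries. In spleen the β3-/- points lie below the WT points for all 10 genes, and in lung 3 genes (Cd74, H2-Eb1 and H2-DMb1) have all β3-/- points above all WT points.

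In the spleen, every class II gene was lower in β3-/- than in WT mice, and the libraries of the genotypes overlapped for none of the 10. Non-overlap in that direction was common, at 32% of the 15480 genes tested. Of the 10, 5 passed an adjusted p of 0.05 (limma on log2 values of FPKM plus 0.1, Benjamini-Hochberg adjustment over all genes tested): H2-Oa, H2-DMa, H2-DMb2, H2-Ab1 and Ciita. Over all genes tested 5.39% passed in that direction. No class II gene changed by more than 1 on the log2 scale, the size the study asked for beside the adjusted p, which 3.32% of all genes met. The median log2 fold change over the 10 genes was -0.56, and that of all genes tested was -0.16. In bulk tissue, fewer cells of a type and less RNA per cell cannot be told apart.

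The chains of the surface heterodimers differed by similar amounts in spleen. H2-Aa, the α chain of I-A, had 1715, 2089 and 1619.9 FPKM in β3-/- spleens and 2539, 2733 and 2761 FPKM in WT spleens. H2-Ab1, its β chain, had 1190.1, 1369 and 1164 FPKM in β3-/- spleens and 1709, 1773 and 1766 FPKM in WT spleens. H2-Eb1, the β chain of I-E, had 1067, 1262 and 1007 FPKM in β3-/- spleens and 1504, 1556 and 1668 FPKM in WT spleens. β3-/- replicate 2 was the highest of the β3-/- spleens for each of these genes and still lay below the lowest WT spleen. The log2 fold changes were -0.57 ± 0.15 (SE) for H2-Aa, -0.50 ± 0.12 for H2-Ab1 and -0.51 ± 0.13 for H2-Eb1. Only that of H2-Ab1 passed the test, with a limma adjusted p of 0.048, against 0.052 for H2-Aa and 0.052 for H2-Eb1. The ratio of H2-Aa to H2-Ab1 within a library was 1.45 ± 0.0685 in β3-/- spleens and 1.53 ± 0.0404 in WT spleens (SD, n = 3 each), with overlapping values.

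The chain that pairs with H2-Eb1 was hardly detected. H2-Ea, the α chain of I-E, was listed at 0.176, 0.238 and 0.147 FPKM in β3-/- spleens and at 0.123, 0 and 0.10 FPKM in WT spleens. In lung it was listed at 0 in all β3-/- libraries and at 0, 0.0801 and 0 FPKM in WT libraries. C57BL/6 mice are known to lack a working H2-Ea. H2-Eb2, a further β chain gene beside H2-Eb1, had 21.6, 29.0 and 18.4 FPKM in β3-/- spleens and 35.5, 37.6 and 33.0 FPKM in WT spleens, a log2 fold change of -0.64 ± 0.16 (limma adjusted p = 0.052).

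Cd74 (chr18:60936899-60945731) had 3591, 4374 and 3526 FPKM in β3-/- spleens and 5226, 5269 and 5255 FPKM in WT spleens. The WT spleens lay close together, whereas β3-/- replicate 2 stood well above the other β3-/- spleens. The log2 fold change was -0.46 ± 0.16 with a limma adjusted p of 0.093, the highest adjusted p of the 10 genes. The summed FPKM of H2-Aa, H2-Ab1 and H2-Eb1 was 1.09 ± 0.0168 times that of Cd74 in β3-/- spleens and 1.14 ± 0.0396 times in WT spleens (SD, n = 3 each), again with overlap.

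The exchange factor and its inhibitor were lower in β3-/- spleens as well. H2-DMa, the α chain of H2-M, had 136, 157 and 122 FPKM in β3-/- spleens against 202, 189 and 216 FPKM in WT spleens (log2 fold change -0.56 ± 0.11, limma adjusted p = 0.038). H2-DMb2, a β chain of H2-M, had 183, 229 and 162 FPKM in β3-/- spleens against 292, 281 and 317 FPKM in WT spleens (log2 fold change -0.65 ± 0.14, limma adjusted p = 0.040). Both fell in every β3-/- spleen relative to every WT spleen. H2-DMb1, the other β chain, had 77.4, 88.2 and 68.3 FPKM in β3-/- spleens and 104, 100.05 and 101 FPKM in WT spleens, a log2 fold change of -0.39 ± 0.11 that did not pass (limma adjusted p = 0.058). It had the smallest change of the 10 genes in spleen.

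H2-Oa, the α chain of H2-O, had 89.4, 114 and 89.4 FPKM in β3-/- spleens and 148, 155 and 165 FPKM in WT spleens. Its log2 fold change of -0.68 ± 0.12 had the lowest adjusted p of the 10 genes (limma, 0.031). H2-Ob, the β chain of H2-O, had 147, 185 and 102 FPKM in β3-/- spleens and 222, 232 and 225 FPKM in WT spleens. Its fold change of -0.69 ± 0.20 on the log2 scale was as large, but the β3-/- spleens were spread widely and it did not pass (limma adjusted p = 0.062). Ciita (chr16:10297923-10347694) had 24.9, 34.6 and 22.5 FPKM in β3-/- spleens and 42.8, 41.2 and 40.7 FPKM in WT spleens, with a log2 fold change of -0.63 ± 0.16 and a limma adjusted p of 0.0496. That change lay within the range of the other class II genes, -0.69 to -0.39.

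**Figure D2:**
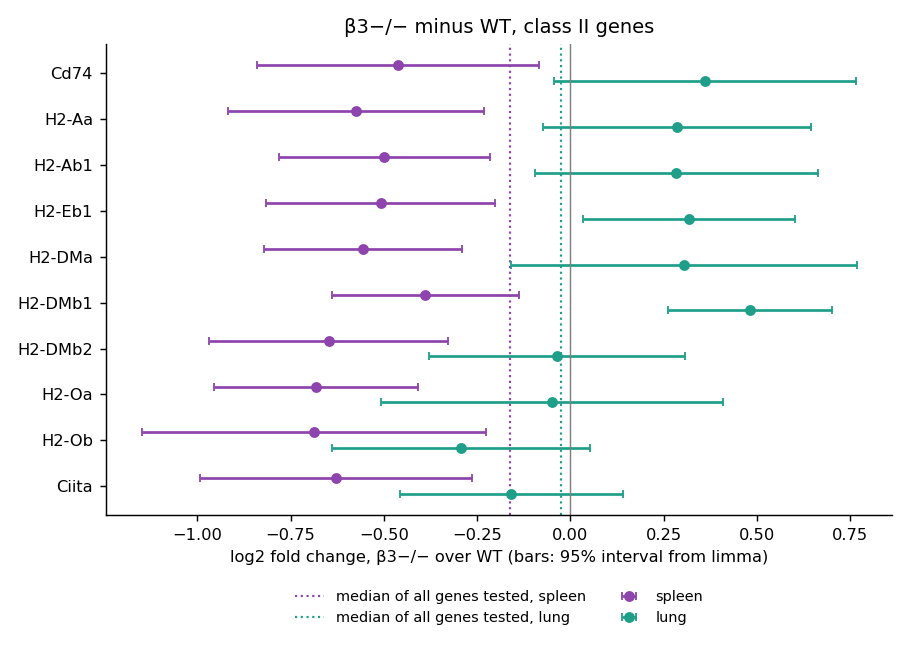
Log2 fold change of each class II gene, β3-/- over WT, in spleen and in lung, with the 95% interval from limma (3 libraries per group), and dotted lines at the median of all genes tested. In spleen all 10 lie below the all-gene median of -0.16, and in lung 6 lie above 0 and 4 below it.

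The size of the spleen change depended on the scaling of the libraries (plot of the spleen values under other processing). The authors' FPKM left the median of all genes at -0.16, with 567 genes higher and 834 lower at an adjusted p of 0.05. With TPM the median was -0.36, with 713 higher and 5345 lower, and all 10 class II genes passed. With median-of-ratios scaling it was -0.0021, with 512 higher and 189 lower, and 1 class II gene passed. With immunoglobulin and globin genes left out of the scaling it was 0.15, with 1547 higher and 107 lower, and none of the 10 passed. All 10 kept a negative log2 fold change under each alternative tried. Relative to the median of all genes, the median of the 10 was at -0.40 in the main analysis, and between -0.58 and -0.32 over the alternatives.

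**Figure D3:**
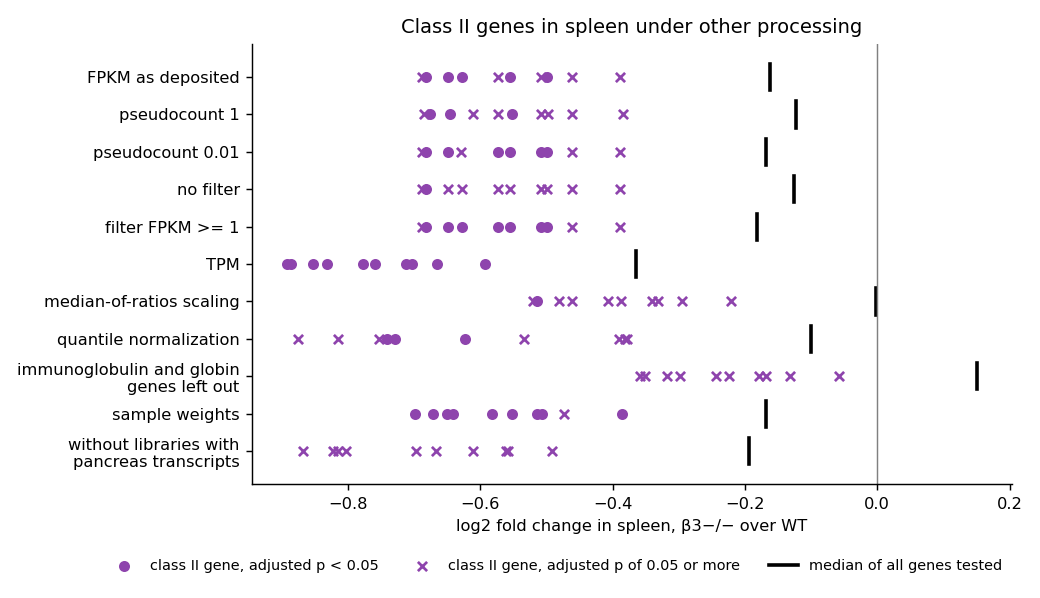
Log2 fold change in spleen, β3-/- over WT, of the 10 class II genes (1 mark per gene, circles for an adjusted p under 0.05 and crosses otherwise) for the values as deposited and for 10 alternatives, with a bar at the median of all genes tested. All marks lie left of 0 and left of the bar of their row, while the number of circles ranges from 0 to 10.

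The number passing also turned on single libraries. Without β3-/- spleen replicate 2 it was 9, and without any other spleen library it was 0. The calls over all genes moved the same way. Without β3-/- spleen replicate 2, 2979 of 15324 genes passed as lower, and without any other spleen library 7 to 55 did. Without both replicate 2 spleens, the libraries that held pancreas transcripts, no class II gene passed, and 6 of all 15080 genes passed as lower. The median log2 fold change was larger there, -0.68 over the 10 genes.

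Markers of the cells that make class II moved with genotype in spleen. The summed level of 12 B cell markers was 1426 to 2126 FPKM in β3-/- spleens and 2732 to 2859 FPKM in WT spleens. All 12 had a negative log2 fold change and 7 passed the test, among them Spib (-0.95 ± 0.18, limma adjusted p = 0.032), a transcription factor of B cells, and Cd79b (-0.89 ± 0.17, limma adjusted p = 0.035), part of the B cell receptor. Of 11 dendritic cell markers 2 passed as lower, Batf3 (-0.56) and Cd209a (-0.79), and the sums overlapped, at 198 to 235 FPKM in β3-/- and 230.3 to 273 FPKM in WT spleens. Of 12 macrophage and monocyte markers 4 passed as higher, Mertk, Adgre1, C1qa and C1qb, and the sums did not overlap, at 1134 to 1498 FPKM in β3-/- and 812 to 908 FPKM in WT spleens. Of 7 plasma cell markers 4 passed as higher, Jchain, Tnfrsf17, Sdc1 and Xbp1, and the sums were 2739 to 2944 FPKM in β3-/- and 964 to 1050 FPKM in WT spleens. Most of that sum was Jchain, the joining chain of secreted antibodies (1.83 ± 0.12, limma adjusted p = 0.00065). Of 9 T cell markers 1 passed as lower, Cd2, and the sums overlapped, at 425 to 605 FPKM in β3-/- and 584 to 796 FPKM in WT spleens. The part of these markers in the class II values was not tested.

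Set against the B cell markers, the class II sum was higher in β3-/- mice (plot of the ratios). The summed FPKM of the 10 genes was 5.32, 4.66 and 5.53 times the B cell marker sum in β3-/- spleens and 4.19, 4.37 and 4.58 times in WT spleens. The lowest β3-/- spleen was just above the highest WT spleen. In lung the ratio was 11.5, 10.6 and 14.8 in β3-/- mice and 7.96, 8.06 and 10.2 in WT mice, also without overlap. Most of the sum was that of the surface chains and Cd74, at 4.77 times the marker sum in β3-/- and 4.02 times in WT spleens. Over the same marker sum, H2-DMa and H2-DMb1 together overlapped between genotypes in spleen but not in lung. Ciita overlapped in lung, at 2.30% in β3-/- and 2.24% in WT mice, but not in spleen. With 3 mice per group an exact permutation test cannot give a p below 0.1. The H2-O sum, by contrast, was 14.3% ± 0.953 of the B cell marker sum in β3-/- spleens and 13.6% ± 0.667 in WT spleens, and 17.1% ± 1.28 in β3-/- lungs and 17.6% ± 2.70 in WT lungs (SD, n = 3 each), with overlap in both tissues.

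In the lung, the class II genes differed in sign. None of the 10 passed the test, against 0.328% of the 15869 genes tested. The log2 fold changes of 6 were above 0, as were those of 45.3% of all genes, and those of 4 were below, with a median of 0.28 against -0.02 for all genes tested. At an unadjusted p of 0.05, 2 of the 10 were higher, H2-DMb1 and H2-Eb1, where 4.95% of all genes were.

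The surface chains and Cd74 had higher means in β3-/- lungs. H2-Aa had 611, 683 and 628 FPKM in β3-/- lungs and 458, 642 and 492 FPKM in WT lungs. H2-Ab1 had 427, 469 and 422 FPKM in β3-/- lungs and 302, 452 and 342 FPKM in WT lungs. For both, WT replicate 2 lay inside the β3-/- range, and that library was the highest WT lung for all 10 genes. H2-Eb1 had 346, 363 and 349 FPKM in β3-/- lungs and 256, 334 and 265 FPKM in WT lungs, and Cd74 had 1396, 1602 and 1478 FPKM in β3-/- lungs and 1052, 1393 and 1064 FPKM in WT lungs. These genes did not overlap, although the gap for Cd74 was only between 1396 and 1393 FPKM. Their log2 fold changes of 0.32 ± 0.12 and 0.36 ± 0.17 did not pass (limma adjusted p = 0.35 for H2-Eb1 and 0.44 for Cd74). Non-overlap with β3-/- higher was seen for 6.86% of all genes and for 3 of the 10, H2-DMb1 being the third.

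H2-DMb1 stood farthest from 0 in lung. It had 56.5, 60.2 and 51.8 FPKM in β3-/- lungs and 37.5, 44.1 and 38.9 FPKM in WT lungs, a log2 fold change of 0.48 ± 0.09 (limma adjusted p = 0.13). All β3-/- lungs were above all WT lungs, but the change did not pass after adjustment. Under sample weights, which give less weight to libraries that fit poorly, it was 0.56 with an adjusted p of 0.044, the only one of 19 alternatives that took a class II gene past the threshold in lung. H2-DMb2 had 36.5, 36.3 and 30.2 FPKM in β3-/- lungs and 33.7, 42.4 and 30.0 FPKM in WT lungs, a log2 fold change of -0.03 ± 0.14. H2-DMa had 73.3, 85.7 and 56.2 FPKM in β3-/- lungs and 62.6, 65.6 and 45.6 FPKM in WT lungs, with overlap.

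The genes of H2-O and Ciita were not higher in β3-/- lungs. H2-Oa had 14.3, 18.6 and 12.6 FPKM in β3-/- lungs and 12.7, 19.1 and 15.3 FPKM in WT lungs. H2-Ob had 32.7, 30.8 and 23.6 FPKM in β3-/- lungs and 33.9, 40.01 and 32.2 FPKM in WT lungs, a log2 fold change of -0.29 ± 0.14 (limma adjusted p = 0.47). Ciita had 5.18, 6.09 and 6.13 FPKM in β3-/- lungs and 6.13, 7.26 and 6.06 FPKM in WT lungs, a log2 fold change of -0.16 ± 0.13 (limma adjusted p = 0.68). In all of these the groups overlapped. The sign of H2-Oa and H2-DMb2 in lung turned under some alternatives.

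Within the lung libraries of high Ubb, the β3-/- library minus the WT mean was 0.21 for H2-Aa, 0.29 for Cd74, 0.35 for H2-DMb1 and -0.64 for H2-Ob on the log2 scale. Within those of low Ubb it was 0.39 for H2-Aa, 0.49 for Cd74, 0.58 for H2-DMb1 and -0.02 for H2-Ob. The sign of H2-DMa, H2-DMb2 and H2-Oa differed between these library groups, with -0.19 and 0.80 for H2-DMa. Each holds 1 library of one genotype and 2 of the other, so these are values without a test.

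The summed balance of H2-O to H2-M genes was lower in β3-/- lungs. The summed FPKM of H2-Oa and H2-Ob over that of the H2-M genes was 0.282, 0.271 and 0.262 in β3-/- lungs and 0.349, 0.389 and 0.414 in WT lungs. It was 0.597, 0.631 and 0.544 in β3-/- spleens and 0.619, 0.679 and 0.615 in WT spleens, with overlap. H2-Oa over H2-DMa alone overlapped in lung, at 0.195, 0.217 and 0.225 in β3-/- and 0.204, 0.291 and 0.335 in WT mice. H2-Ob over the sum of H2-DMb1 and H2-DMb2 did not, with means of 0.320 in β3-/- and 0.469 in WT lungs. The ratio of H2-DMb2 to H2-DMb1, which is the less certain for the similarity of the copies, was 0.647, 0.603 and 0.582 in β3-/- lungs and 0.900, 0.962 and 0.772 in WT lungs. It was also lower in spleen, at 2.36, 2.59 and 2.37 in β3-/- mice and 2.80, 2.81 and 3.15 in WT mice. The groups did not overlap in either tissue. The ratios were set up with the members' values in view, so no test is given.

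**Figure D4:**
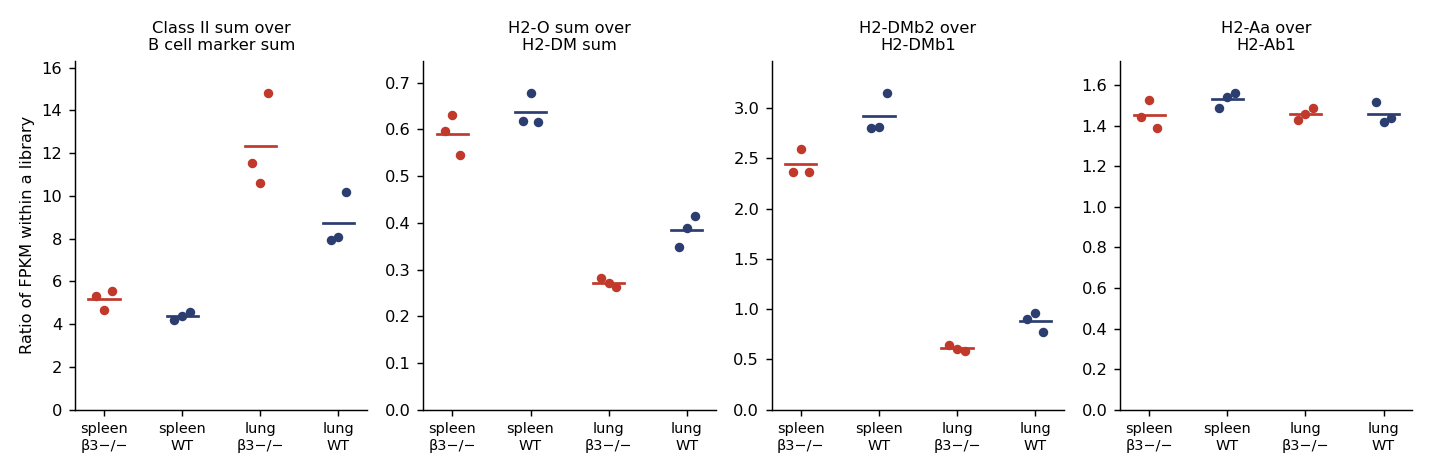
Ratios of FPKM within each library, 1 point per library and a line at the mean of 3, for β3-/- and WT spleens and for β3-/- and WT lungs. The ratio of class II to B cell marker sums is higher in β3-/- mice in both tissues, and that of H2-DMb2 to H2-DMb1 is lower in both. The H2-O to H2-M ratio is lower in β3-/- lungs and overlaps in spleen. The H2-Aa to H2-Ab1 ratio stays near 1.45 to 1.53 in all groups.

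In lung the marker lists moved with genotype in part. None of 12 B cell markers passed the test in lung (1 was lower at an unadjusted p of 0.05), and their sums overlapped, at 206 to 317 FPKM in β3-/- lungs and 229 to 377 FPKM in WT lungs. The sums of 11 dendritic cell markers just failed to overlap, at 103.6 to 104.7 FPKM in β3-/- lungs and 85.0 to 103.2 FPKM in WT lungs. No dendritic cell marker passed, Siglech having the lowest limma adjusted p, 0.072. Those of 12 macrophage and monocyte markers overlapped, as did those of 8 alveolar type 2 markers, at 18199 to 21553 FPKM in β3-/- and 16871 to 28096 FPKM in WT lungs. The 9 T cell markers summed to 113 to 119.7 FPKM in β3-/- lungs and 75.8 to 108 FPKM in WT lungs, and none of them passed. At an unadjusted p of 0.05, Cd3d, Cd3e, Cd3g, Trac, Cd4, Cd8a and Cd8b1 were higher, but not Cd5 or Cd2. Over all genes 4.95% were higher at that p. The 7 plasma cell markers were higher in sum in β3-/- lungs as in β3-/- spleens, at 413 to 440.1 FPKM in β3-/- and 193 to 209 FPKM in WT lungs. Of these 1 passed, Jchain, at 211 FPKM in β3-/- and 7.43 FPKM in WT lungs (5.07 ± 0.47, limma adjusted p = 0.011). The 9 erythroid markers summed to 10901 to 16402 FPKM in β3-/- lungs and 4805 to 7302 FPKM in WT lungs, and of the 8 tested 1 passed, Alas2, the first enzyme of haem synthesis in red cells (1.43 ± 0.17, limma adjusted p = 0.032). The part of these in the class II values was not tested.

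The genotype effect itself was compared between the tissues in 1 fit of all 12 libraries. The effect in spleen minus that in lung was below 0 for all 10 genes, as for 62.7% of all genes, with a median of -0.80 against -0.12 for all genes tested. At an unadjusted p of 0.05, 9 of the 10 were lower, where 12.8% of all genes were, and the exception was H2-Ob (-0.40 ± 0.27). After adjustment 1 passed, H2-DMb1 (-0.87 ± 0.14, limma adjusted p = 0.036), where 0.202% of the 16312 genes tested passed in that direction. H2-Eb1 (-0.83 ± 0.18, limma adjusted p = 0.063) and H2-Aa (-0.86 ± 0.22, limma adjusted p = 0.088) followed. With the mouse as a random block, 2 passed, H2-Eb1 being the second. The H2-DMb1 call held without β3-/- spleen 2, WT spleen 1, β3-/- lung 3 or WT lung 2. It was lost without any 1 of the other 8 libraries, with adjusted p between 0.069 and 0.13 and values between -0.88 and -0.78.

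All 10 class II genes were higher in spleen than in lung, in both genotypes. In β3-/- mice the log2 difference ran from 0.47 ± 0.10 (H2-DMb1) to 2.69 ± 0.17 (H2-Oa), and in WT mice from 1.34 ± 0.10 (H2-DMb1) to 3.32 ± 0.17 (H2-Oa). Every one passed the test, where 32.6% of all genes passed as higher in β3-/- mice and 37.8% in WT mice. With TPM, H2-DMb1 in β3-/- mice no longer passed (0.21, limma adjusted p = 0.13), and no other call of this kind was lost.

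The size of that tissue difference varied among the genes, without a test between genes. H2-Oa, H2-Ob, H2-DMb2 and Ciita were at 2.20 to 2.69 in β3-/- mice and at 2.67 to 3.32 in WT mice on the log2 scale. The surface chains and Cd74 were at 1.36 to 1.65 in β3-/- mice and at 2.18 to 2.48 in WT mice, and H2-DMa and H2-DMb1 were at 0.47 to 0.96 in β3-/- mice and at 1.34 to 1.82 in WT mice. In fold terms, H2-Oa in WT spleens was 9.99 times its level in WT lungs, against 2.53 times for H2-DMb1.

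**Figure D5:**
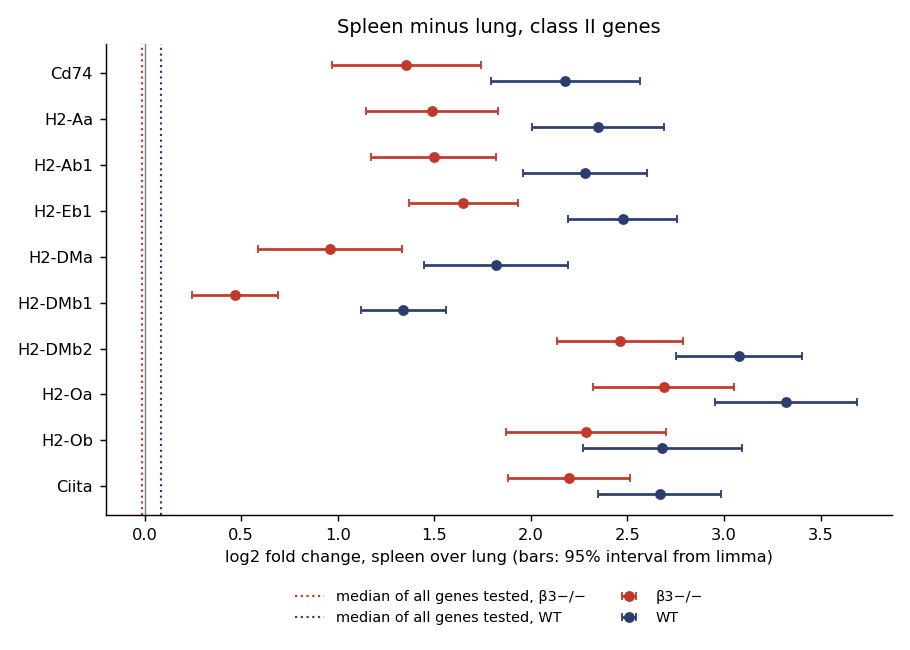
Log2 difference of each class II gene, spleen over lung, in β3-/- and in WT mice, with the 95% interval from limma (3 libraries per group), and dotted lines at the median of all genes tested. All 10 lie to the right of 0 in both genotypes, each β3-/- value lies left of the WT value, and H2-DMb1 is nearest to 0 at 0.47 in β3-/- and 1.34 in WT mice.

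Other genes followed the same course over the 12 libraries. Likeness was measured as the root mean square difference between log2 profiles, each centred on its own mean, over 13426 genes with a mean of at least 1 FPKM. Nearest to the mean profile of H2-Aa, H2-Ab1, H2-Eb1 and Cd74 were Sema4d (0.084), Myo1g (0.12), Cd247 (0.13), Stat4 (0.13) and Inpp5d (0.13). Nearest to the mean profile of H2-Oa and H2-Ob were Prkcb (0.12), Gpr18 (0.12), Cd72 (0.12), Cd37 (0.12) and Tnfrsf13b (0.13). Sema4d is a semaphorin of lymphocytes, Cd247 the zeta chain of the T cell receptor, Prkcb a kinase of B cell receptor signalling, and Tnfrsf13b the receptor TACI. H2-DMb2 lay 0.095 from the H2-O profile, whereas H2-DMb1 lay 0.96 from it, and Ciita lay 0.21 from it and 0.33 from that of the surface chains. The points are 12 libraries of 2 tissues, so the tissue difference enters each distance.

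Few genes that act upstream of the class II promoters passed the test. Of 12 transcription genes 1 passed in spleen, Spi1, which encodes PU.1, a factor of myeloid and B cells (-0.34 ± 0.08, limma adjusted p = 0.047). Of the factors of the X box, Rfx5 had 14.8 FPKM in β3-/- and 17.3 FPKM in WT spleens and Rfxank had 10.9 FPKM in β3-/- and 14.1 FPKM in WT spleens (means, n = 3 each), and neither passed. None of the 12 passed in lung (2 were higher at an unadjusted p of 0.05), where Irf1, an interferon response factor, was at 48.5 FPKM in β3-/- and 56.7 FPKM in WT lungs. Of 10 genes of interferon γ, IL-10 and IL-4 signals none passed in either tissue. At an unadjusted p of 0.05, Ifngr2, Il4ra and Socs1 were lower in spleen and Socs1 in lung. The share of all genes lower at that p is not given here for either tissue, so these calls have no background beside them. The highest levels were those of Ifngr1, a chain of the interferon γ receptor, at 144 FPKM in β3-/- and 144 FPKM in WT spleens, and of the kinase Jak1, at 86.9 FPKM in β3-/- and 98.9 FPKM in WT spleens. Ifng, the cytokine best known to induce Ciita, was at 0.858 FPKM in β3-/- and 0.715 FPKM in WT spleens and at 0.153 FPKM in β3-/- and 0.133 FPKM in WT lungs.

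Of 12 genes of class II processing and turnover, 4 passed in spleen and none in lung, where 1 was lower at an unadjusted p of 0.05 (Marchf1). Marchf8, a ubiquitin ligase known to remove class II from the surface, was higher in β3-/- spleens, at 24.5 FPKM against 7.11 FPKM in WT spleens (1.76 ± 0.28, limma adjusted p = 0.030). Its genotype effect also differed between the tissues (1.85, limma adjusted p = 0.045). Tspan33, a tetraspanin, was higher at 54.8 FPKM in β3-/- against 13.5 FPKM in WT spleens (1.97 ± 0.40, limma adjusted p = 0.038). Of 9 erythroid markers 8 passed as higher in the same spleens, with sums of 62943 to 123192 FPKM in β3-/- and 7399 to 29843 FPKM in WT spleens, and their part in the values of these genes was not tested. The lower genes were Cd37, a tetraspanin of B cells (-0.73 ± 0.13), and Ifi30, the thiol reductase GILT (-0.42 ± 0.10). The proteases did not pass, Ctss, which trims the invariant chain, being at 382 FPKM in β3-/- and 399.7 FPKM in WT spleens. In lung the highest levels were those of the proteases Ctsd, at 351 FPKM in β3-/- and 316 FPKM in WT lungs, and Ctss, at 154 FPKM in β3-/- and 132 FPKM in WT lungs. Marchf1, the related ligase of B cells and dendritic cells, had 27.3 FPKM in β3-/- and 34.6 FPKM in WT spleens and 5.51 FPKM in β3-/- and 7.29 FPKM in WT lungs, without overlap in either tissue, and did not pass.

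Receptors of T cells were measured too: Cd4 and Lag3, which bind class II, and the costimulatory receptors Cd28 and Icos. None of the 4 passed in either tissue. In lung all 4 were higher at an unadjusted p of 0.05, with every β3-/- library above every WT library. Lag3, an inhibitory receptor that binds class II, was at 1.51 FPKM in β3-/- and 0.717 FPKM in WT lungs (0.97 ± 0.21, limma adjusted p = 0.16), and Cd4 at 4.25 FPKM in β3-/- and 2.84 FPKM in WT lungs (0.57 ± 0.19, limma adjusted p = 0.31). Cd28 was at 3.23 FPKM in β3-/- and 2.28 FPKM in WT lungs. In spleen none of the 4 passed at an unadjusted p of 0.05 and the values of all 4 overlapped, with Cd4 at 32.1 FPKM in β3-/- and 36.5 FPKM in WT spleens and Cd28 at 13 FPKM in both.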

How the data were processed

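RNA-seq was measured in 12 libraries, lung and spleen of the same 3 β3-/- and 3 WT mice. The authors deposited FPKM per gene. Per the labels and the study's methods, Trimmomatic, HISAT2 (build GRCm39) and featureCounts were used upstream. Versions, the FPKM tool and the strand setting are not given in the sources used here, which also differ on RNA extraction (column kit or TRIzol). Depth is unknown, so no counting interval is given.

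Genes with at least 0.1 FPKM in 3 or more libraries of a tissue were tested as log2(FPKM + 0.1) with limma 3.58.1 (R 4.3.3) and a mean-variance trend, with Benjamini-Hochberg adjustment over all genes. Fold changes on that scale understate the change of low genes. Each tissue had a fit of 6 libraries, and comparisons between tissues 1 fit of 12. Fits were tested on simulated data. Alternatives changed the pseudocount, filter, scaling, weights, blocks and libraries.

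The text names all class II genes, H2-Ea, H2-Eb2, listed genes that passed (up to 6 a list, otherwise the 2 of highest FPKM) and the 5 nearest profiles. The cell marker lists depart from this: of the B cell and erythroid markers that passed in spleen, not all that the rule allows are named. Rfx5, Rfxank, Ifng, Marchf1, Lag3 and Ctss in spleen were chosen after values were seen, as were the values within lung libraries of high or low Ubb (above or below 100 FPKM). The genes, lists and tests were chosen with earlier results of these data known. Per the methods, lung and spleen came from the same mice. Same-numbered tissues deviated together only weakly, at r of 0.038 to 0.18, against -0.13 to 0.014 for different numbers of 1 genotype. Same-numbered spleens of different genotypes, which are different mice, reached 0.21. P-values within a tissue measure the spread between these animals. The main fit of 12 libraries had no term for the mouse, so the lung and spleen of 1 mouse entered it as separate samples. Names for 520 gene IDs came from GENCODE.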

Additional observations from a re-analysis of the deposited data

Results flagged for a closer look

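H2-DMb1 passed the test for a genotype effect that differs between the tissues in the main analysis. The call was lost without the trend and, for most of the 12 libraries, when that 1 library was left out. Its log2 fold change, β3-/- over WT, was -0.39 ± 0.11 (SE) in spleen and 0.48 ± 0.09 in lung, and the spleen effect minus the lung effect was -0.87 ± 0.14 (limma adjusted p = 0.036 over 16312 genes). Neither effect passed within its own tissue (limma adjusted p = 0.058 in spleen and 0.13 in lung). All 3 β3-/- spleens were below all 3 WT spleens, and all 3 β3-/- lungs were above all 3 WT lungs. Non-overlap in these directions was seen for 32% of all genes in spleen and 6.86% in lung. Reads may be shared with H2-DMb2, whose effect in spleen minus that in lung was -0.61 ± 0.21 (limma adjusted p = 0.15).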

How the results depend on the processing

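In spleen, the number of class II genes lower at an adjusted p of 0.05 was 5 in the main analysis, 3 with a pseudocount of 1, 1 without a filter, 10 with TPM, 1 with median-of-ratios scaling, 3 with quantile normalization, 0 without the trend, 9 with sample weights, 0 with immunoglobulin and globin genes left out of the scaling, 0 without the spleens with pancreas transcripts and 9 in the fit of all 12 libraries. Leaving out 1 library gave 0 to 9. Over all genes the number lower moved too, from 834 in the main analysis. It was 782 with a pseudocount of 1, 160 without a filter, 5345 with TPM and 189 with median-of-ratios scaling. It was 643 with quantile normalization, 81 without the trend, 1579 with sample weights and 107 with immunoglobulin and globin genes left out. Without the spleens with pancreas transcripts it was 6, in the fit of all 12 libraries 2202, and without 1 library 7 to 2979. In lung, 1 class II gene was higher with sample weights and none otherwise. Over all genes 96 were higher with sample weights and 47 in the main analysis. For the effect in spleen minus that in lung, 1 class II gene was lower in the main analysis, 2 with TPM and 0 without the trend. With sample weights it was 7, with the mouse as replicate block 2, and leaving out 1 library gave 0 to 4. Over all genes these numbers were 33, 125, 29, 447 and 121 in the same order, and 3 to 596 without 1 library. The cause was not tested. Samples of 1 number in different genotypes share only the number (r of deviations -0.32 to 0.21), and with it as a block 5 class II genes passed in spleen and 0 in lung.

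In lung, the sign of H2-DMb2 turned with median-of-ratios scaling (0.0055), with sample weights (0.047) and with immunoglobulin and globin genes left out (0.00038), and that of H2-Oa with sample weights (0.16). Leaving out 1 library gave -0.15 to 0.10 for H2-DMb2 and -0.21 to 0.10 for H2-Oa. No other sign turned for the 10 genes in either genotype comparison, and all 10 stayed higher in spleen than in lung under every alternative. Depth is unknown, so values near 0, such as those of H2-Ea and Ifng, carry no stated precision.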
